A study of Rattus norvegicus with 6 samples.

Results

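The genes described here are 10 genes of bone and mineralization, Spp1, Ibsp, Dmp1, Runx2, Sp7, Alpl, Bglap, Mgp, Phex and Sost, out of 18166 genes with a value in cultures of SKPs (skin-derived precursors, grown from dermis) and NSCPs (nerve-derived Schwann cell precursors). Each of the 10 was found by its symbol in the platform's gene table, and each had 1 probe set with a single symbol, so no choice between probe sets was needed. The arrays held RNA of 6 cultures, 3 of SKPs and 3 of NSCPs, from wild-type Sprague-Dawley rats, made from newborn pups as independent isolates of back skin and of sciatic nerve. SKPs were passaged as spheres at 50000 cells/ml in DMEM-F12 (3:1) with EGF (20 ng/ml), B27 (2%), FGF2 (40 ng/ml) and fungizone (1 μg/ml). NSCPs were grown on dishes coated with poly-D-lysine (30 μg/ml) and laminin (4 μg/ml), in medium with N2 (2%), P/S (1%), forskolin (5 μM) and neuregulin-1β (25 ng/ml). The growth text runs both media together, and B27 and fungizone were read as parts of the SKP medium. Tissue, medium and growth form therefore differ together between the groups and cannot be told apart. How many pups went into an isolate is not stated in the labels.

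Bone forms when mesenchymal cells, under the transcription factor Runx2 and then Sp7 (osterix), become osteoblasts, lay down collagen and load it with calcium phosphate. Alpl breaks down pyrophosphate, which otherwise blocks crystal growth. The SIBLING proteins (Spp1, Ibsp, Dmp1 and relatives) are acidic phosphoproteins that bind mineral and, through integrins, cells. Bglap and Mgp carry vitamin K-dependent Gla residues, and Mgp keeps soft tissue from calcifying. Dmp1, Phex and Sost are genes of the osteocyte, the cell embedded in bone. Several of these genes are also used outside bone: macrophages make Spp1, and cartilage, vessel wall and fibroblasts make Mgp. The series title concerns regrowth of the digit tip, a structure that contains bone, with help from precursors of the nerve.

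The promoter windows of Spp1, Ibsp and Runx2 are shown because Spp1 and Ibsp are close neighbours on 1 chromosome that moved in opposite directions, and Runx2 encodes the factor that heads the osteoblast programme. Each run is the 250 bases before the annotated start, 5′ to 3′ on the gene's strand, from RefSeq on build GRCr8, at chr14:5619805-5620054 (minus strand) for Spp1, chr14:5757243-5757492 (minus strand) for Ibsp and chr9:23664808-23665057 (plus strand) for the first of the 2 Runx2 starts in the table. Capitals mark 3 motifs searched on both strands, the Runx core TGTGGT, the TATA box TATAAA and the GC box GGGCGG. The capitals in Ibsp and Runx2 read the motif on the opposite strand, that is as its reverse complement.
Spp1: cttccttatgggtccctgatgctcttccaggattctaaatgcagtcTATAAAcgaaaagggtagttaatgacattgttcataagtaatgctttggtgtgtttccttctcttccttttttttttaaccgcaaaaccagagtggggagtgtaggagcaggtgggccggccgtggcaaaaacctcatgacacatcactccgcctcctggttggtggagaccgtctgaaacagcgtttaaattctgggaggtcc
Ibsp: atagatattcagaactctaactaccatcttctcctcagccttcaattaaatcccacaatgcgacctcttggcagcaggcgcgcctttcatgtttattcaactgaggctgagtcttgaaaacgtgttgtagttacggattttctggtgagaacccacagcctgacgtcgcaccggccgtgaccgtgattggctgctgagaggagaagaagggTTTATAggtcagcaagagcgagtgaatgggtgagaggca
Runx2: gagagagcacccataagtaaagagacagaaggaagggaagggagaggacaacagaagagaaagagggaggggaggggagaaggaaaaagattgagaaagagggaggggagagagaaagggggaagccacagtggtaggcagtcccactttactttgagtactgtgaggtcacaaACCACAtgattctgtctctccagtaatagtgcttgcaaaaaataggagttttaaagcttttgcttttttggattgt

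Over windows of 250 bases before and 50 after the start, 17.3% of all 33469 windows held the Runx core, 14.2% the TATA box and 33.1% the GC box. Windows were held for 7 of the 10 genes (8 windows, 2 of them for Runx2). The Runx core was matched 3 times in the first Runx2 window, of which 1 match lies before the start, 76 to 71 bases upstream, and once in that of Bglap. The windows of Spp1, Ibsp, Dmp1, Alpl and Sost and the second Runx2 window held 0 matches to TGTGGT on either strand. Variant spellings of the Runx site were not searched, so a site of another spelling would be missed and unmarked. The TATA box was matched once each in Spp1 (204 to 199 bases upstream), Ibsp (39 to 34 bases upstream) and Bglap, and the GC box 4 times in Alpl and once in the second Runx2 window. These are matches of letters only.

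Values are log2 expression after RMA, a method that corrects and normalizes the probes and combines those of a probe set into a single value. Each difference is the NSCP mean minus the SKP mean of these log2 values, SE is its standard error, and a gene is called when its adjusted p, over all 18166 genes, was under 0.05. Odorant and pheromone receptor genes (1345) served to set a background level of 5.49, under which 95% of their means lay, and a group mean that does not exceed it is described as within background. Arrays of a group correlated across genes at 0.984 to 0.993, and arrays of different groups at 0.872 to 0.888. All 7 measured Schwann lineage markers were higher in NSCPs and all 7 dermal fibroblast markers higher in SKPs, as the labels have it. Over all genes 43.7% were called, 25.2% higher and 18.6% lower in NSCPs, and 56.6% had groups that did not overlap.

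Of the 10 genes 6 were called, beside 43.7% of all genes: 4 lower in NSCPs (Mgp, Spp1, Runx2 and Dmp1) and 2 higher (Ibsp and Alpl). The median difference was -0.16 over the 10 genes and 0.14 over all genes. In 7 of the 10 the groups did not overlap, beside 56.6% of all genes. These counts are read no further, because the genes divide into a few with very large differences and several near or below background. A group mean above background was found for 7 of the 10, Spp1, Runx2, Sp7, Sost, Alpl, Ibsp and Mgp. Bglap, Dmp1 and Phex had both means within background, as had 5494 of all 18166 genes.

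**Figure D1:**
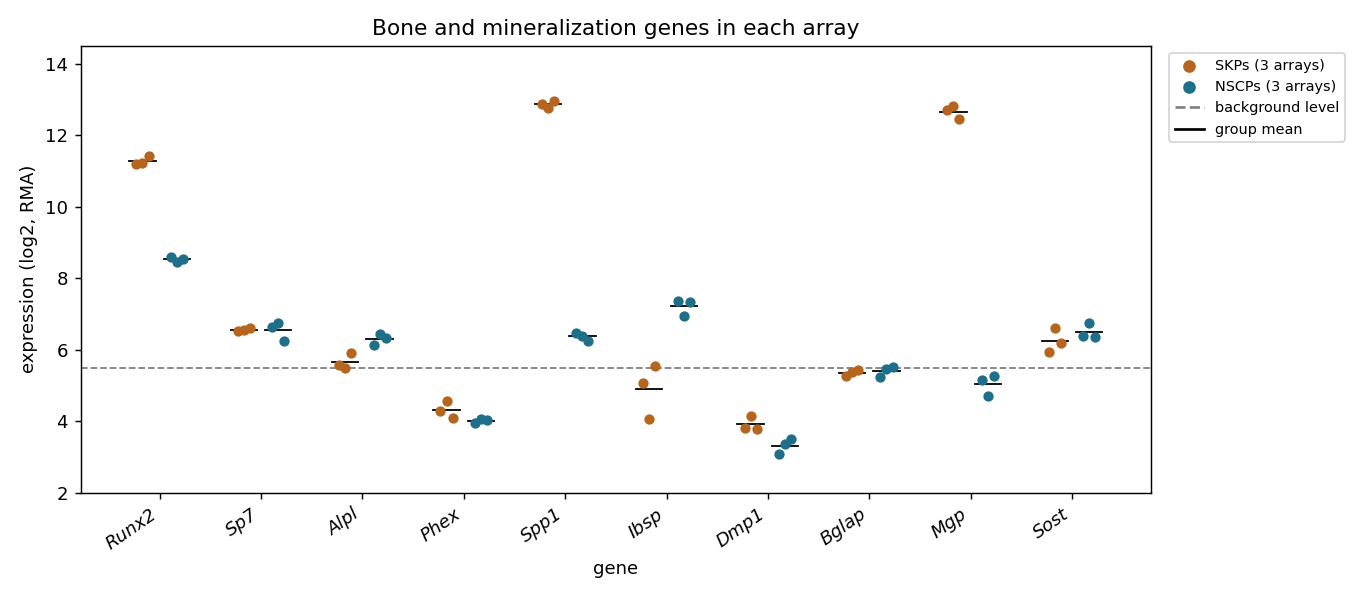
Log2 expression (vertical axis) of each of the 10 genes in the 3 SKP and 3 NSCP arrays, with group means as black lines and the background level of 5.49 dashed. Spp1, Mgp and Runx2 are far higher in SKPs, Ibsp lies above background in NSCPs, and Bglap, Dmp1 and Phex lie near or below background in both groups.

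Runx2, which encodes the transcription factor that commits cells to the osteoblast lineage, was present in both cell types and 6.72-fold lower in NSCPs. Its probe set (17857692) read 11.19, 11.23 and 11.42 in SKP replicates 1, 2 and 3 and 8.60, 8.46 and 8.53 in the NSCP replicates. Every SKP array was higher than every NSCP array, and all 6 lay above background. The difference was -2.75 (SE 0.12, adjusted p = 4.87e-07), with means of 11.28 ± 0.12 and 8.53 ± 0.07 (SD, n = 3 each). Thus NSCPs still lay 3.04 above the background level on the log2 scale.

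Sp7, which encodes the zinc finger factor that acts after Runx2 in osteoblasts, did not follow it. The Sp7 probe set (17841548) stood at 6.55 ± 0.04 in SKPs and 6.55 ± 0.27 in NSCPs (SD, n = 3 each), and the groups overlapped. Its difference of -0.01 was not called (adjusted p = 0.967), with a 95% interval from -0.36 to 0.34. All 6 arrays were above background, by about 1 log2 unit in the mean of either group (1.06 in SKPs and 1.05 in NSCPs).

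Alpl, the gene of tissue-nonspecific alkaline phosphatase, was 1.56-fold higher in NSCPs. Values (probe set 17811709) were 5.58, 5.48 and 5.91 in SKP replicates 1 to 3 and 6.13, 6.43 and 6.32 in the NSCP replicates. The groups did not overlap, and SKP replicate 2 lay below the background level, so the SKP side of the difference is close to background. The difference was 0.64 (SE 0.15, adjusted p = 0.00934). It did not pass limma's treat, a test against a 2-fold change.

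Phex encodes a membrane endopeptidase whose loss causes phosphate wasting. In no array did it exceed background (probe set 17872452, 4.10 to 4.56 in SKPs and 3.94 to 4.05 in NSCPs). Its difference of -0.31 was not called (adjusted p = 0.112, 95% interval from -0.63 to 0.02), although the groups did not overlap. After renewed quantile normalization the difference was -0.38 with an adjusted p of 0.0493.

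Among the SIBLING genes, Spp1 and Ibsp went in opposite directions. Spp1, the gene of osteopontin, read 12.88, 12.76 and 12.95 in SKP replicates 1 to 3 and 6.48, 6.39 and 6.24 in the NSCP replicates (probe set 17692849). The NSCP values were low but all above the background level. Spp1 was therefore 90.3-fold lower in NSCPs, a difference of -6.50 (SE 0.12, adjusted p = 2.15e-08) between means of 12.86 ± 0.10 and 6.37 ± 0.12 (SD, n = 3 each).

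Ibsp, which encodes bone sialoprotein, a nucleator of mineral, was 5.02-fold higher in NSCPs. It read 5.06, 4.06 and 5.53 in SKP replicates 1 to 3 and 7.37, 6.93 and 7.33 in the NSCP replicates (probe set 17692863). All NSCP arrays exceeded all SKP arrays, and among the SKP arrays only replicate 3 was above background, by a small margin. The difference was 2.33 (SE 0.33, adjusted p = 5.46e-04), and it ranged from 1.92 to 2.65 when single arrays were left out. With 0.75 the SD of Ibsp in SKPs was the largest of the 10 genes in either group, and the SKP mean of 4.88 was within background, so the fold rests on a background level. The NSCP mean of 7.21 lay 1.72 above that level.

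Dmp1, which encodes a matrix protein of osteocytes and dentin, was called lower in NSCPs but lay within background throughout. Values were 3.81, 4.15 and 3.77 in SKP replicates 1 to 3 and 3.09, 3.36 and 3.50 in the NSCP replicates (probe set 17692872). The groups did not overlap, and no array reached the background level. The difference of -0.59 (SE 0.16, adjusted p = 0.0150) was the smallest of the 6 that were called, and its adjusted p was 0.0502 without NSCP replicate 1. Of the 5494 genes with both means within background, 16.4% were called.

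The 3 genes lie in the SIBLING cluster on chromosome 14, where the protein-coding genes in RefSeq order on GRCr8 run Pkd2, Spp1, Mepe, Ibsp, Dmp1, Dspp, Sparcl1, Scpppq1 and Nudt9. Calls along this stretch went both ways. Pkd2, which encodes polycystin 2 and flanks Spp1, was lower in NSCPs (-1.51, adjusted p = 7.82e-05), with means of 10.20 in SKPs and 8.69 in NSCPs. Mepe, which lies between Spp1 and Ibsp and encodes a further SIBLING protein, differed by 0.12 and was not called (adjusted p = 0.600), with means of 4.68 and 4.81 within background. Dspp, the dentin sialophosphoprotein gene, differed by 0.12 as well (adjusted p = 0.466) with both means within background. Thus of the 5 SIBLING genes of the cluster only Spp1 and Ibsp had a group mean above background. Beyond them, Sparcl1 was not called (0.36, adjusted p = 0.210), Nudt9 was higher in NSCPs (0.95), and Scpppq1 was called higher (0.42) within background.

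**Figure D2:**
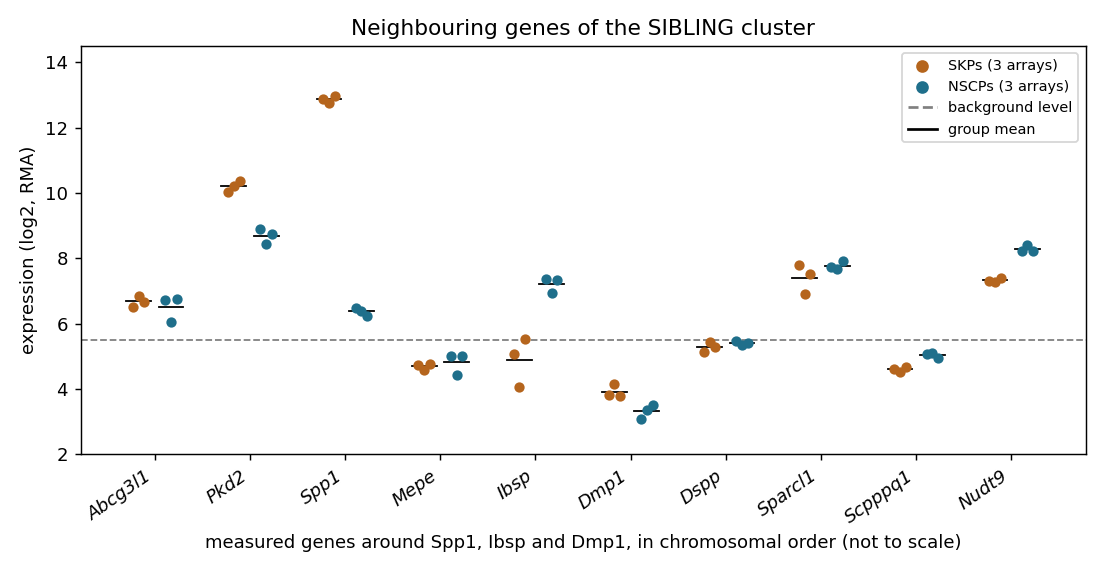
Log2 expression (vertical axis) of the measured genes around Spp1, Ibsp and Dmp1 in chromosomal order, with 3 SKP and 3 NSCP arrays per gene, group means as black lines and the background level dashed. Spp1 is high in SKPs alone, Ibsp is above background in all NSCP arrays, and Mepe, Dmp1 and Dspp lie within background in both groups.

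The Gla protein genes were Mgp and Bglap. Mgp, which encodes matrix Gla protein, the inhibitor of soft tissue calcification, read 12.71, 12.81 and 12.46 in SKP replicates 1 to 3 and 5.16, 4.70 and 5.25 in the NSCP replicates (probe set 17795965). All SKP arrays were high and all NSCP arrays were below the background level. The difference of -7.62 (SE 0.17, adjusted p = 3.48e-08) was the largest of the 10 genes, between means of 12.66 ± 0.18 and 5.04 ± 0.30 (SD, n = 3 each). Because the NSCP mean was within background, the 197-fold ratio rests on a background level, and measured against that level itself the SKP mean stood 7.16 higher on the log2 scale.

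Bglap, the gene of osteocalcin, a late product of osteoblasts, ranged from 5.26 to 5.43 in SKPs and from 5.23 to 5.51 in NSCPs (probe set 17748669). Just 1 of its 6 arrays, NSCP replicate 3, exceeded the background level. The difference of 0.04 was not called (adjusted p = 0.812, 95% interval from -0.25 to 0.33).

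Sost, which encodes sclerostin, the osteocyte's secreted inhibitor of Wnt signalling, ranged from 5.93 to 6.60 in SKPs and from 6.34 to 6.74 in NSCPs (probe set 17661731). The groups overlapped, and all 6 arrays were above background. The difference of 0.25 was not called (adjusted p = 0.322, 95% interval from -0.19 to 0.69).

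**Figure D3:**
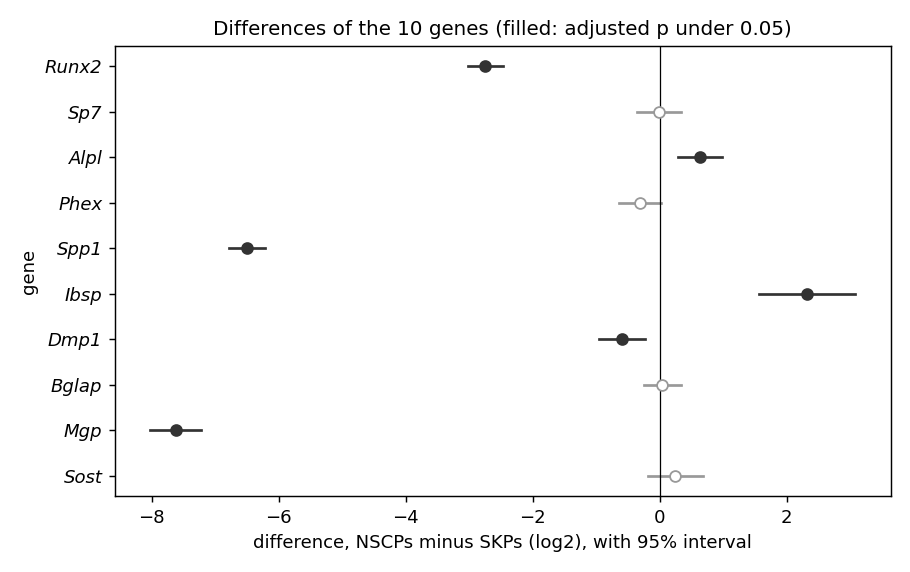
Difference of each of the 10 genes, NSCPs minus SKPs on the log2 scale (horizontal axis), with its 95% interval from the fit over 3 and 3 arrays. Filled points passed an adjusted p of 0.05: Mgp (-7.62), Spp1 (-6.50), Runx2 (-2.75) and Dmp1 (-0.59) to the left, Ibsp (2.33) and Alpl (0.64) to the right.

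The genes whose pattern over the 6 arrays was most like that of a called gene were taken as the 3 with the smallest Euclidean distance between gene-centred log2 values. For Spp1 these were Vcan, the versican gene (distance 0.18), Runx1t1 (0.37) and the lipoprotein lipase gene Lpl (0.41). Vcan differed by -6.55, against -6.50 for Spp1. For Runx2 they were Igf2r, which encodes the receptor for mannose 6-phosphate and IGF2 (0.17), Septin6 (0.21) and Mast4 (0.23). For Mgp they were the NADPH oxidase gene Cybb (0.89), the cadherin gene Cdh11 (0.89) and the pattern receptor gene Clec7a (0.90), all farther off than the neighbours of Spp1. For Ibsp they were the phosphodiesterase gene Pde1c (0.51), Ap1s3 (0.57) and Zfp462 (0.60). Each was, like Ibsp, lowest in SKP replicate 2 among the SKP arrays, a likeness for which the genes were chosen. For Alpl they were Focad (0.13), Olfm2 (0.13) and the ribosomal protein gene Rpl28 (0.15), and for Dmp1, within background, Tcn2 (0.19), Srp68 (0.21) and Rnf122 (0.21).

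Further genes of bone formation were taken as 6 lists of 72 genes, of which 67 were measured. Of these 40 were lower and 6 higher in NSCPs and 21 were not called, beside 18.6% lower and 25.2% higher over all genes. The other 5 had no probe set listed under their symbol alone and were not analysed here. Genes of a list are called measured in that sense. Like the 10 genes, these lists describe the tissue's pathway and are not an independent test of it.

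Transcriptional regulators of osteoblasts, the partners and modifiers of Runx2, had 7 of 13 measured genes lower and 1 higher, with a median of -0.98. Mef2c, which encodes a MADS-box factor, was lower in NSCPs (10.16 ± 0.43 in SKPs against 6.17 ± 0.20, SD, n = 3 each, adjusted p = 1.65e-06). Twist2, a bHLH factor of dermis that restrains osteoblasts, was 11.7-fold lower. Vdr, the vitamin D receptor gene, differed by -2.66 with its NSCP mean within background. Runx1, the relative of Runx2 used in blood cells, differed by -1.96, from 9.20 ± 0.52 to 7.25 ± 0.15 (SD, n = 3 each). The single higher gene was Cbfb, which encodes the partner subunit of all Runx factors (0.67), named after its values were seen.

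Genes that set pyrophosphate and phosphate, the substrates around Alpl, had 4 of 9 lower and 0 higher, with a median of -0.16 (by limma at an unadjusted p under 0.05, 4 lower and 2 higher). Enpp1, the ectoenzyme gene that makes pyrophosphate from ATP, was 20.1-fold lower in NSCPs (11.45 ± 0.51 against 7.12 ± 0.11, SD, n = 3 each). Nt5e, which makes adenosine from AMP outside the cell, was 12.2-fold lower with its NSCP mean within background. The annexin gene Anxa5 and the phosphate transporter gene Slc20a1 differed less, by -0.68 and -0.57. Alpl itself went the other way, by 0.64. Ankh, which encodes the transporter that supplies pyrophosphate outside the cell, differed by 0.49 and was not called (adjusted p = 0.0889), and it was named after its values were seen.

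Bone matrix genes and those that modify the matrix had 11 of 15 lower and 1 higher, with a median of -0.83. The higher one, Ahsg, had both means within background and was named after its values were seen. The proteoglycan gene Bgn was 40.6-fold lower in NSCPs (13.17 ± 0.03 against 7.82 ± 0.22, SD, n = 3 each). Lox, the collagen cross-linking oxidase gene, was 23.3-fold lower, Omd (osteomodulin) differed by -3.63 with its NSCP mean within background, and Gas6, a further Gla protein gene, differed by -3.46. The enzymes that Mgp and Bglap need were measured as well: Ggcx, the carboxylase gene that makes Gla residues, differed by -1.13, and Vkorc1, which recycles vitamin K, by -0.81. Fam20c, the kinase gene for SIBLING proteins, differed by -0.94. The main bone collagen genes differed less, Col1a1 by -0.95 and Col1a2 by -0.74, and their lowest NSCP values were 11.64 and 11.70. Those last 5 genes were named for their roles after values were seen.

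Signals of osteocytes and bone turnover had 7 of 11 lower and 2 higher, with a median of -1.51. Tnfrsf11b, the gene of osteoprotegerin, the decoy that restrains osteoclast formation, differed by -3.63. Pdpn, an early osteocyte gene also found in fibroblasts, was 9.28-fold lower, and Pth1r, the parathyroid hormone receptor gene, differed by -2.84 with its NSCP mean within background. The 2 higher genes were Lrp4, given below, and Sostdc1, a relative of Sost with a similar secreted product. Sostdc1 was 47.0-fold higher in NSCPs (11.64 ± 0.12 against 6.09 ± 0.30, SD, n = 3 each), while Sost itself was not called. Of the receptors that sclerostin binds, named after their values were seen, Lrp5 differed by -2.68, Lrp6 by -0.56 and Lrp4 by 0.41. The adjusted p of Lrp4 was 0.0498, next to the threshold.

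BMPs are growth factors that induce Runx2 and Sp7 in mesenchyme, and the list of BMP inputs held ligands, receptors and antagonists. Of its 12 genes 8 were lower and 0 higher, with a median of -1.19 (by limma at an unadjusted p under 0.05, 8 lower and 0 higher). The ligand genes Bmp7 (-2.58), Bmp4 (-2.46) and Bmp2 (-2.34) were lower in NSCPs, and so was Chrd (-2.05), which encodes the antagonist chordin. NSCP means of Bmp7 and Bmp4 were within background. In SKPs these ligands varied between cultures, with Bmp2 at 8.40, 6.74 and 8.47 in replicates 1 to 3.

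Receptors for osteopontin and bone sialoprotein had 3 of 7 lower and 2 higher, with a median of -0.32. The list held 9 genes, and the integrin genes Itgav and Itgb3 were not analysed here. The integrin genes Itga5 (-3.17) and Itgb5 (-2.19) were lower in NSCPs. Itga9, an integrin gene whose product binds osteopontin, was 3.09-fold higher, and Cd44, a hyaluronan and osteopontin receptor gene, was 1.89-fold higher. Itgb1, whose product pairs with many alpha chains, ranged from 11.69 to 12.07 over the 6 arrays and was not called (0.26, adjusted p = 0.100). It was named after its values were seen.

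**Figure D4:**
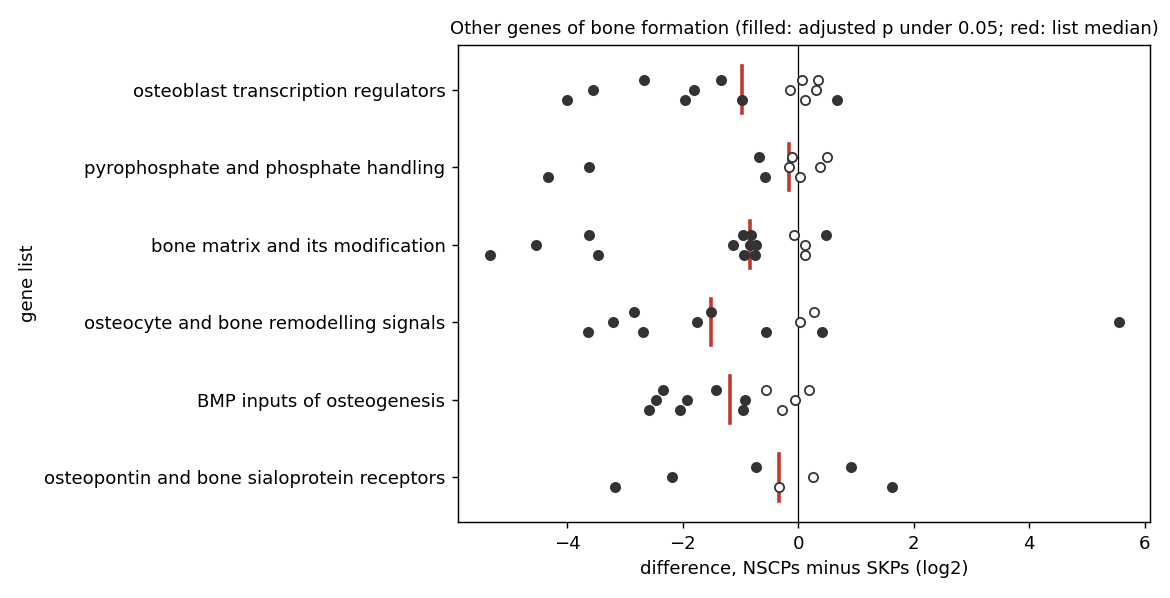
Differences, NSCPs minus SKPs on the log2 scale (horizontal axis), of the 67 measured genes in 6 lists of bone formation, with filled points for an adjusted p under 0.05 and red bars at list medians. All 6 medians lie below 0, from -0.16 to -1.51, and the lone point at 5.56 is Sostdc1.

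Markers of some other cell types also differed between the groups. In bulk RNA, fewer cells of a type and less RNA per cell cannot be told apart. All 15 macrophage markers were lower in NSCPs, and the log2 of their summed linear values was 14.43 to 15.35 in SKPs and 9.12 to 9.20 in NSCPs. Lyz2, Ptprc, Cybb and Spi1 were among the 11 of 15 within background in NSCPs, and 0 of 15 were within background in SKPs. SKP replicates 1, 2 and 3 had macrophage sums of 15.35, 14.43 and 14.74, while Spp1 stood at 12.88, 12.76 and 12.95 there. Their part in the Spp1 difference was not tested.

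The 7 dermal fibroblast markers were lower in NSCPs, with sums of 15.03 to 15.10 in SKPs and 10.87 to 11.02 in NSCPs. Of these, Lum, Dcn, Pdgfra, Prrx1 and Fap were within background in NSCPs. Col3a1 and Fn1, named after their values were seen, lay above background there, at means of 10.69 and 7.88. The part of dermal fibroblasts in the differences of Mgp and Runx2 was not tested. Osteoclast markers, of which 6 of 10 were measured, had 3 lower and 1 higher, with sums of 11.21 to 11.81 against 8.05 to 8.18. Those not analysed here were Acp5, Dcstamp, Ocstamp and Nfatc1. In SKPs the highest was Ctsk, at a mean of 11.12. The marker called higher in NSCPs, Calcr, was within background in SKPs. Ctsk and Calcr were named after their values were seen. Of 11 measured chondrocyte markers 9 were not called, 1 was lower and 1 higher in NSCPs, with sums of 9.14 to 9.77 in SKPs and 8.62 to 8.89 in NSCPs. The lower one was Hapln1, the link protein gene, at a mean of 8.35 in SKPs and within background in NSCPs (-4.28, adjusted p = 1.96e-05), and the higher one was Cnmd (1.12), both named after their values were seen. Of the 11, 8 had a mean within background in SKPs and 5 in NSCPs, and Acan and Col10a1 were so in both groups. Sox9 and Matn1, named after their values were seen, had means above background in both groups. These were 5.55 and 5.89 in SKPs and 5.65 and 5.94 in NSCPs, those of Sox9 close to the level. Smooth muscle and pericyte markers had 3 of 6 lower, with sums of 9.98 to 10.30 against 9.45 to 9.78.

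**Figure D5:**
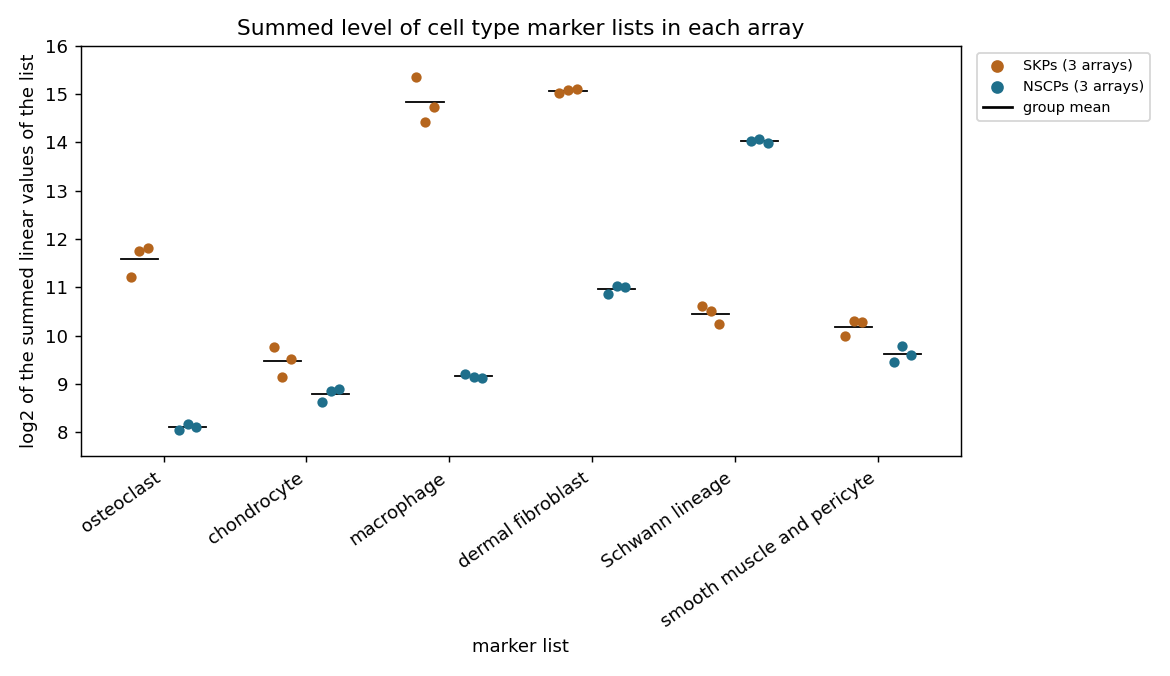
Log2 of the summed linear values of each marker list (vertical axis) in the 3 SKP and 3 NSCP arrays, with group means as black lines. Macrophage and dermal fibroblast sums are higher in every SKP array, Schwann lineage sums in every NSCP array, and the SKP arrays spread most in the macrophage list, from 14.43 to 15.35.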

How the data were processed

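The deposited values are log2 expression per probe set and array, which the authors made with oligo and RMA (no versions stated), per the submitters' processing notes. Since RMA equalizes the distributions of the arrays, it would hide a change of all genes together. Which genome build the probe sets follow is not stated in the labels. The table's 36685 probe sets divided into 18511 with a single symbol, 575 with more than 1 and 17599 unnamed here. Current symbols came from RefSeq (GRCr8), found through the Entrez ID for 18394. Where a gene had more than 1 probe set (291 genes), the brightest on average was used, which left 18166 genes. The groups were tested with limma 3.58.1 (R 4.3.3), as a 2-sided moderated test of lmFit and eBayes with Benjamini-Hochberg adjustment over every gene and with no added normalization or filter. The fit was also run on simulated arrays with independent noise and far fewer changed genes than were called here. That run checks the code and not the calls in these data. Plots used matplotlib 3.10.9. The 6 arrays limit the precision.

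The 10 genes, the lists and the rules were chosen with earlier results of these data known. Named genes were all 10 members, up to 4 called genes per list with the largest difference (other list genes are said to be named after their values were seen), and the 3 genes nearest to each called member, without provisional symbols and microRNA genes. The chromosomal neighbours of Spp1, Ibsp and Dmp1 were added after the values were seen. Marker lists are given by counts, sums and markers within background, and other markers are said to be named after their values were seen. Alternatives left out each array, added a replicate block, repeated the quantile normalization, centred medians, dropped dim genes in 2 ways, averaged probe sets of a gene, adjusted over all 36685 probe sets, used array weights or a trended, robust prior, and set an adjusted p under 0.01 or treat against a 2-fold change.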

Additional observations from a re-analysis of the deposited data

How the results depend on the processing

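Over 17 alternatives the calls of Spp1, Mgp, Runx2 and Ibsp kept their direction and stayed past the threshold. In that order their differences ran from -6.62 to -6.37, from -7.73 to -7.37, from -2.82 to -2.68 and from 1.92 to 2.65. The block, the dim-gene filters, the wider adjustment, the prior and the stricter criteria cannot change a difference, only whether it is called. Averaging probe sets could not change the values of the 10 genes, each with 1 probe set. Mgp passed the filter on arrays above background through its 3 SKP arrays alone. Alpl lost its call under treat against a 2-fold change. Dmp1 lost its call without NSCP replicate 1 (adjusted p = 0.0502), at an adjusted p under 0.01 and under treat, and both filters on dim genes removed it, which left 7 of the 10 genes. Phex gained a call after renewed quantile normalization. The cause was not tested. The uncalled differences near 0 changed sign. For Bglap the difference without single arrays ran from -0.013 to 0.12, and for Sp7 from -0.12 to 0.14, with Sp7 at 0.14 after renewed quantile normalization and 0.058 after median centring.

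When single arrays were left out, 3 to 4 of the 10 genes were lower and 2 higher, 38 to 40 of the pathway genes lower and 4 to 7 higher, and 2846 to 3267 of all genes lower and 3495 to 4250 higher. Under treat, which asks for more than a 2-fold change, 3 of the 10 genes were lower and 1 higher, 23 pathway genes lower and 1 higher, and 1044 of all genes lower and 714 higher. At an adjusted p under 0.01 the genes higher over all were 2886. With the replicate number as a block 4 of the 10 genes were lower and 2 higher, as without it, and 4378 of all genes were higher and 3303 lower. Deviations of same-numbered cultures correlated at 0.04, 0.05 and 0.03, so the numbers were not taken to pair them, although each array correlated best with its own number, a hint from the data and not from the design. Median centring moved the median of all genes by 0.07. No detection calls were used, so values near 5.49 cannot be told from background, and depth does not apply to arrays.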
